A study of Homo sapiens with 10 samples.

Results

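Fatty acid synthesis, fatty acid remodelling and triglyceride storage were described through 36 genes, taken as the rows of the deposited table whose symbol is on a fixed list, of 16734 genes in all. Expression was measured as FPKM (fragments per kilobase of a gene's length, relative to library size) in MIA PaCa-2, an established human pancreatic ductal adenocarcinoma cell line. Of the 10 libraries, 5 came from cells kept for 24 h in 10 µM hydroxyprogesterone caproate (HPC), a synthetic progestin, and 5 from cells kept as long in the same volume of its solvent, DMSO. All cells were grown in DMEM with fetal bovine serum and antibiotics, and no genotype differed between the groups. The 5 libraries of each group are labelled as biological replicates with neither culture days nor batches named, so every p-value rests on a spread between libraries that may be technical. The 36 genes were read by role: 7 for fatty acid synthesis, 9 for elongation and desaturation, 5 for activation and carriage, and 15 for triglyceride synthesis, lipid droplets and lipolysis.

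Cells make fatty acids from citrate. ACLY cuts citrate to acetyl-CoA, acetyl-CoA carboxylase turns this into malonyl-CoA, and FASN joins malonyl units to palmitate with NADPH that enzymes such as ME1 supply. Elongases and desaturases then lengthen palmitate and add double bonds, acyl-CoA synthetases activate fatty acids, and acyltransferases esterify them to glycerol for storage in lipid droplets. The transcription factor SREBP1, encoded by SREBF1, is a known activator of many of these genes and is released from the endoplasmic reticulum when SCAP escorts it to the Golgi, a step that INSIG proteins hold back.

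HPC libraries had lower levels of the core genes of fatty acid synthesis (SREBF1, FASN, ACACA and ACLY), whereas SCD, the most abundant of the 36 genes, rose slightly. Some related genes changed in opposite directions: ELOVL7, FADS1 and PLIN2 rose, and ELOVL6, FADS2 and PLIN3 fell. Others changed in the same direction: ACSL3 and ACSL4, LPIN1 and LPIN2, and DGAT1 and DGAT2 rose, and AGPAT2, AGPAT3 and AGPAT5 fell. Of the 36 genes, 32 passed a filter of at least 1 FPKM in at least 5 libraries, and of these 14 were higher, 15 lower and 3 did not pass (limma on log2(FPKM + 0.1), Benjamini-Hochberg adjusted p under 0.05 over 9150 genes). The same rule called 87.7% of all tested genes, 42.9% higher and 44.8% lower, so the count of calls among the lipid genes was near the background. Values of the groups did not overlap for 27 of the 32 genes, against 79.6% of all tested genes. Changes of at least 2-fold were found for 6 of the 32, namely 2 higher and 4 lower, against 17.4% of all tested genes (7.54% higher and 9.88% lower). Of these 6, ELOVL6, ELOVL7 and PNPLA3 passed the filter through 1 group only, so they had to differ. In their weakest alternative setting SREBF1, ELOVL6 and PNPLA3 came under 2-fold, with log2 fold changes of -0.96, -0.82 and -0.70. Those of SCD5, ELOVL7 and PLIN2 were then -1.42, 1.21 and 1.18. The median log2 fold change was -0.04 for the 32 genes and -0.01 for all tested genes. In RNA of whole cultures, fewer cells of a type and less RNA per cell cannot be told apart, and FPKM gives shares of a library rather than amounts per cell.

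The steps of the FPKM values gave back between 65851927 and 82219086 reads per library, and 100% of the genes above 0 in at least 3 libraries came out as whole reads within 0.001 of a read. Libraries of a group correlated over the tested genes at r of 0.989 to 0.994, and those of different groups at 0.842 to 0.863. The 13 genes of the mitochondrial genome made up 22.6% ± 0.704 of the FPKM in DMSO and 14.8% ± 0.717 in HPC (SD, n = 5, exact two-sided permutation p = 0.00794, the smallest that 5 against 5 libraries can give). This share enters every FPKM value. With libraries scaled to the sum over the other genes, the all-gene median of the log2 fold change shifted by -0.16 to -0.18, and 62.9% instead of 51.1% of the calls were lower. By that scaling 12 of the 32 lipid genes were higher and 17 lower, so 29 were called, against 87.1% of all tested genes (32.3% higher and 54.8% lower). Of the epithelial markers KRT8, KRT18 and KRT19 were present at 51.8, 114 and 24.0 FPKM in DMSO, while KRT7, EPCAM and CDH1 stayed at 0.264 FPKM or lower in every library, and the mesenchymal marker VIM stood at 695 FPKM. Of the adipocyte markers, ADIPOQ and LEP were each at 0 in 9 libraries and PLIN1 did not exceed 0.0892 FPKM. With HPC, KRT8 stood at 57.7, KRT18 at 150, KRT19 at 10.1 and VIM at 333 FPKM. CD68, a lysosomal protein of macrophages, was at 2.75 ± 0.358 FPKM in DMSO and 9.77 ± 1.15 FPKM in HPC, whereas the leukocyte marker PTPRC was at or near 0 in every library. CDH5, an endothelial cadherin, was at 1.42 ± 0.0422 FPKM in DMSO and 0.0124 FPKM in HPC. The part of these differences in the lipid gene results was not tested.

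**Figure D1:**
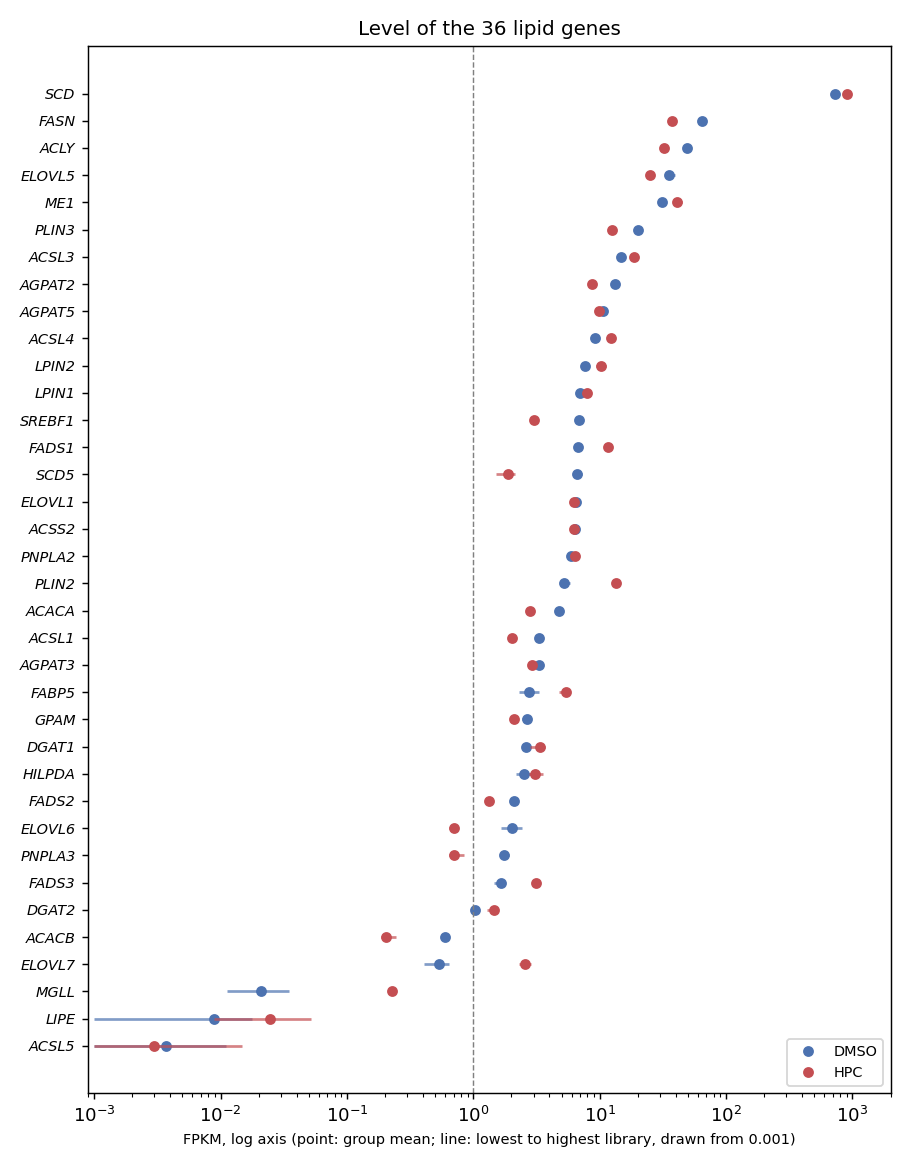
Level of each of the 36 genes in FPKM on a log axis, with the mean of 5 DMSO libraries (blue) and 5 HPC libraries (red) and a line from the lowest to the highest library. The dashed line marks 1 FPKM. SCD stands far above the others at 733 FPKM in DMSO, and ACACB, ACSL5, LIPE and MGLL lie under 1 FPKM in both groups.

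The levels in the plot of all 36 genes spanned a wide range. SCD alone held 68.4% ± 0.554 of the summed FPKM of the 36 genes in DMSO and 75.2% ± 0.419 in HPC (SD, n = 5). Their sum was 1072 ± 12.6 FPKM in DMSO and 1196 ± 22.6 FPKM in HPC. Without SCD it was 339 ± 5.78 and 297 ± 3.62 FPKM. These sums are given as a description on the FPKM scale. They were not computed with the non-mitochondrial sum, which shifted the all-gene median log2 fold change by -0.16.

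Promoter sequences are shown for paralogs or neighbours that moved in opposite directions, to show what was searched for motifs. A CCAAT match is found both in SCD, which rose, and in SCD5 and PLIN3, which fell. They are RefSeq sequences of GRCh38.p14, read 5′ to 3′ on the gene's strand, and capitals mark matches to a searched motif. For SCD and SCD5 the stretch lies upstream of every exon of GENCODE 29 in the window (chr10:100346983-100347123, plus strand, and chr4:82798858-82799046, minus strand). For FADS1 (chr11:61817047-61817076), PLIN2 (chr9:19127544-19127573) and PLIN3 (chr19:4867728-4867757), all on the minus strand, 30 bases around the match are given.
SCD: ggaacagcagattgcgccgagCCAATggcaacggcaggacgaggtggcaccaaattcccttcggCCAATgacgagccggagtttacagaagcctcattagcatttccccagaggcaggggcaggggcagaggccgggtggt
SCD5: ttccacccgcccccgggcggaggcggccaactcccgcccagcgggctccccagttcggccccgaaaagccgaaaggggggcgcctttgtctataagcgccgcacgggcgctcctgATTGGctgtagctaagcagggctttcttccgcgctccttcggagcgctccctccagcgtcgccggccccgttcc
FADS1: cgatgcccgccTGACGTCAggaagtcgaat
PLIN2: gctgccgcgggtCACGTGctgcggaggctt
PLIN3: atccctcaacctgATTGGtcccctcgcccg

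The motifs searched, on both strands of the 250 bases before the start, were the CCAAT box (CCAAT), an E-box (CACGTG), the core of a cAMP response element (TGACGT) and the core of a sterol regulatory element (TCACCCCAC). The reverse complement of CCAAT reads ATTGG, and the FADS1 match is a palindrome in which the matches of both strands overlap. Of the 36 genes, 28 had a promoter in the RefSeq table, and where it lists several starts 1 was used. A CCAAT box was found in 11 of the 28 (39.3%) and in 32.0% of all 35116 promoters. An E-box was found in 2 (7.14%, against 6.34% of all), a TGACGT core in 4 (14.3%, against 7.10%) and the sterol element core in 1 (3.57%, against 0.362%), which was PNPLA2. The FADS2 window held none of the 4 motifs. A match is a description of letters and not a binding site.

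In fatty acid synthesis, 4 of the 6 tested genes were lower, 1 was higher and 1 did not pass, with a median log2 fold change of -0.67 against -0.01 for all tested genes. Of all tested genes 42.9% were higher and 44.8% lower, which is the background for each main count by role or list. With the non-mitochondrial sum the background is 32.3% higher and 54.8% lower. SREBF1 (chromosome 17, 17810399 to 17837002, GRCh38, GENCODE 29) measured 6.48, 6.67, 7.03, 6.77 and 7.20 FPKM in DMSO replicates 1 to 5. In HPC replicates 1 to 5 it measured 3.02, 2.98, 3.10, 2.97 and 2.99 FPKM. Every HPC value lay under every DMSO value, and the HPC values were spread over a much narrower range. SREBF1 fell 2.23-fold (log2 fold change -1.15 ± 0.033 SE, limma, adjusted p = 1.33e-12). The table gives 1 value per gene, so the SREBP1a and SREBP1c transcripts cannot be told apart, and 6.92% of its exonic bases overlap RAI1 on the opposite strand, whose reads can be told apart only if strand was counted, which is not given in the sources used here.

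FASN, the multi-domain synthase that makes palmitate (chromosome 17, 82078333 to 82098332), measured 63.1, 62.8, 67.0, 65.9 and 66.6 FPKM in DMSO. Its HPC values were 36.9, 39.3, 37.7, 34.4 and 37.9 FPKM. The groups were far apart, and FASN fell by 0.80 on the log2 scale (SE 0.034, limma, adjusted p = 6.81e-11). ACACA, the cytosolic acetyl-CoA carboxylase (chromosome 17, 37084988 to 37406818), measured 4.74, 4.70, 4.69, 4.86 and 4.89 FPKM in DMSO. It measured 2.73, 2.73, 2.76, 2.94 and 2.96 FPKM in HPC. The fall of 0.74 on the log2 scale (SE 0.034, limma, adjusted p = 1.37e-10) was close to that of FASN.

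ACLY (chromosome 17, 41866908 to 41930542) measured 49.1, 46.3, 50.5, 49.7 and 48.9 FPKM in DMSO. With HPC the values were 31.0, 32.6, 34.2, 31.0 and 32.4 FPKM, again without overlap. ACLY fell 1.52-fold (log2 fold change -0.60 ± 0.032 SE, limma, adjusted p = 6.48e-10). ACACB, the mitochondrial carboxylase whose product restrains fatty acid oxidation, was under the filter at 0.598 ± 0.0342 FPKM in DMSO and 0.203 ± 0.0243 FPKM in HPC (SD, n = 5), without overlap of the groups. With no filter its log2 fold change was -1.21 (limma, adjusted p = 1.61e-08).

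ME1, malic enzyme 1, which makes NADPH in the cytosol, rose from 31.1 ± 1.08 to 41.2 ± 2.25 FPKM (limma log2 fold change 0.40 ± 0.037 SE, adjusted p = 2.34e-07), with every HPC value above every DMSO value. ACSS2, which makes acetyl-CoA from acetate, stood at 6.34 ± 0.342 FPKM in DMSO and at 6.24 ± 0.134 FPKM in HPC and did not pass (log2 fold change -0.02 ± 0.036 SE, limma, adjusted p = 0.599). It passed as lower with the non-mitochondrial sum (log2 fold change -0.19).

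**Figure D2:**
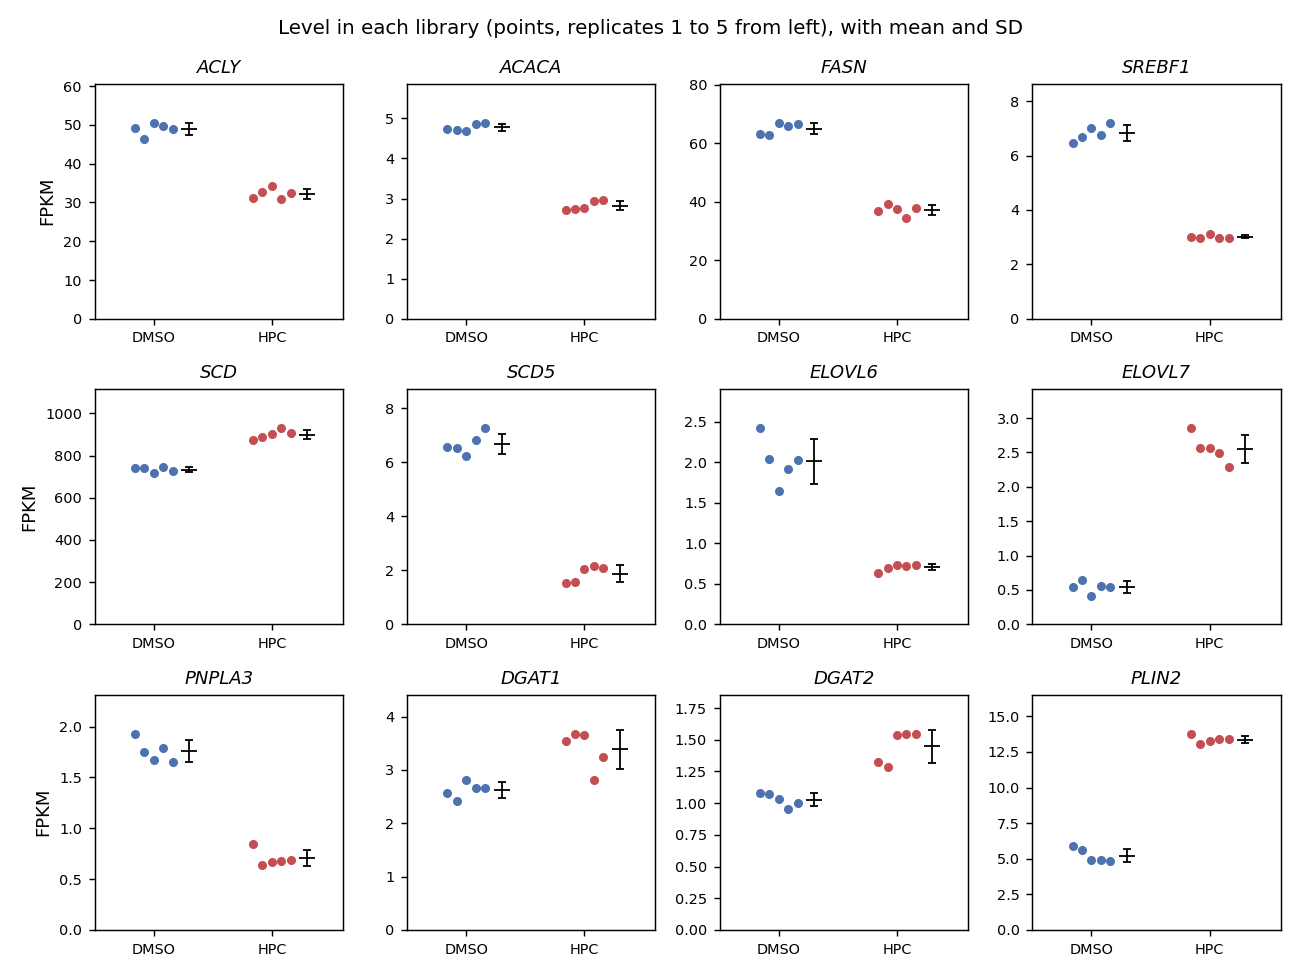
FPKM in each library for 12 genes, with DMSO in blue and HPC in red, replicates 1 to 5 from left to right, and the mean with its SD beside them. Every axis starts at 0. The groups do not overlap in any panel, and the DGAT1 value of HPC replicate 4 (2.81) lies just above the highest DMSO value (2.80).

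Among desaturases and elongases, which act on the chains that the synthase releases, 4 of 9 genes rose, 4 fell and 1 did not pass the test (their median log2 fold change was -0.05). SCD, the delta-9 desaturase that makes oleate and palmitoleate (chromosome 10, 100347124 to 100364834), measured 740, 742, 716, 744 and 725 FPKM in DMSO. In HPC it measured 872, 887, 901, 929 and 905 FPKM, all above the DMSO range. The rise was 1.23-fold (log2 fold change 0.29 ± 0.021 SE, limma, adjusted p = 1.62e-08), and it was 0.54 on the log2 scale after quantile normalization and 0.13 with the non-mitochondrial sum.

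Its paralog SCD5 (chromosome 4, 82629539 to 82798857) moved the other way. SCD5 measured 6.55, 6.51, 6.22, 6.83 and 7.25 FPKM in DMSO and 1.52, 1.55, 2.05, 2.15 and 2.09 FPKM in HPC. HPC replicates 1 and 2 were lower than the other HPC libraries, and all 5 were far under DMSO. The fall was 3.47-fold (log2 fold change -1.79 ± 0.096 SE, limma, adjusted p = 2.52e-09), the largest fall among the 32 genes. SCD5 made up 0.902% ± 0.0525 of the summed FPKM of both desaturases in DMSO and 0.207% ± 0.0304 in HPC.

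Of the elongases, ELOVL7 rose and ELOVL6 and ELOVL5 fell. ELOVL6, which extends palmitate to stearate (chromosome 4, 110045846 to 110199199), measured 2.42, 2.04, 1.65, 1.91 and 2.03 FPKM in DMSO and 0.640, 0.695, 0.735, 0.726 and 0.731 FPKM in HPC. It fell 2.61-fold (log2 fold change -1.38 ± 0.080 SE, limma, adjusted p = 1.78e-09). ELOVL7, an elongase of saturated and some unsaturated chains (chromosome 5, 60751791 to 60844389), measured 0.542, 0.646, 0.410, 0.558 and 0.543 FPKM in DMSO and 2.85, 2.56, 2.57, 2.49 and 2.29 FPKM in HPC. Its rise of 4.17-fold (log2 fold change 2.06 ± 0.088 SE, limma, adjusted p = 7.88e-11) was the largest change among the 32 genes, and 1.21 on the log2 scale with a pseudocount of 1. ELOVL6 passed the filter through its DMSO libraries only and ELOVL7 through its HPC libraries only, as did PNPLA3 through DMSO, so these 3 had to differ to be low in 1 group. Of the other 29 tested genes, 13 were higher and 13 lower.

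ELOVL5, which extends polyunsaturated chains, fell from 35.6 ± 2.06 to 25.1 ± 1.09 FPKM (limma log2 fold change -0.50 ± 0.041 SE, adjusted p = 5.51e-08). ELOVL1, which makes very long saturated chains, stood at 6.45 ± 0.142 FPKM in DMSO and at 6.23 ± 0.302 FPKM in HPC with overlapping groups (log2 fold change -0.05 ± 0.035 SE, limma, adjusted p = 0.191), and passed as lower with the non-mitochondrial sum (-0.21). It also passed without HPC replicate 3 (log2 fold change -0.07, limma, adjusted p = 0.0394) and with a replicate block and TPM rescaling (-0.08, adjusted p = 0.0325).

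The 3 FADS genes lie together on chromosome 11, and the annotated span of FADS1 falls within that of FADS2. FADS1, the delta-5 desaturase of polyunsaturated fatty acids (61799625 to 61829318), rose from 6.73 ± 0.182 to 11.6 ± 0.331 FPKM (limma log2 fold change 0.78 ± 0.029 SE, adjusted p = 1.83e-11). FADS2, the delta-6 desaturase (61792980 to 61867354), fell from 2.09 ± 0.0397 to 1.33 ± 0.0517 FPKM (limma log2 fold change -0.62 ± 0.037 SE, adjusted p = 2.38e-09). Both act in the same pathway to arachidonate and related fatty acids. Their RefSeq starts lie 599 or 800 bases apart and point toward each other. In GENCODE 29 their exons on opposite strands share 490 bases (4.79% of FADS1 and 4.44% of FADS2), so some reads may belong to either gene. FADS3 (61873519 to 61892051), a related gene, rose from 1.65 ± 0.122 to 3.15 ± 0.153 FPKM (limma log2 fold change 0.89 ± 0.052 SE, adjusted p = 1.95e-09). In none of the 3 genes did the groups overlap.

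**Figure D3:**
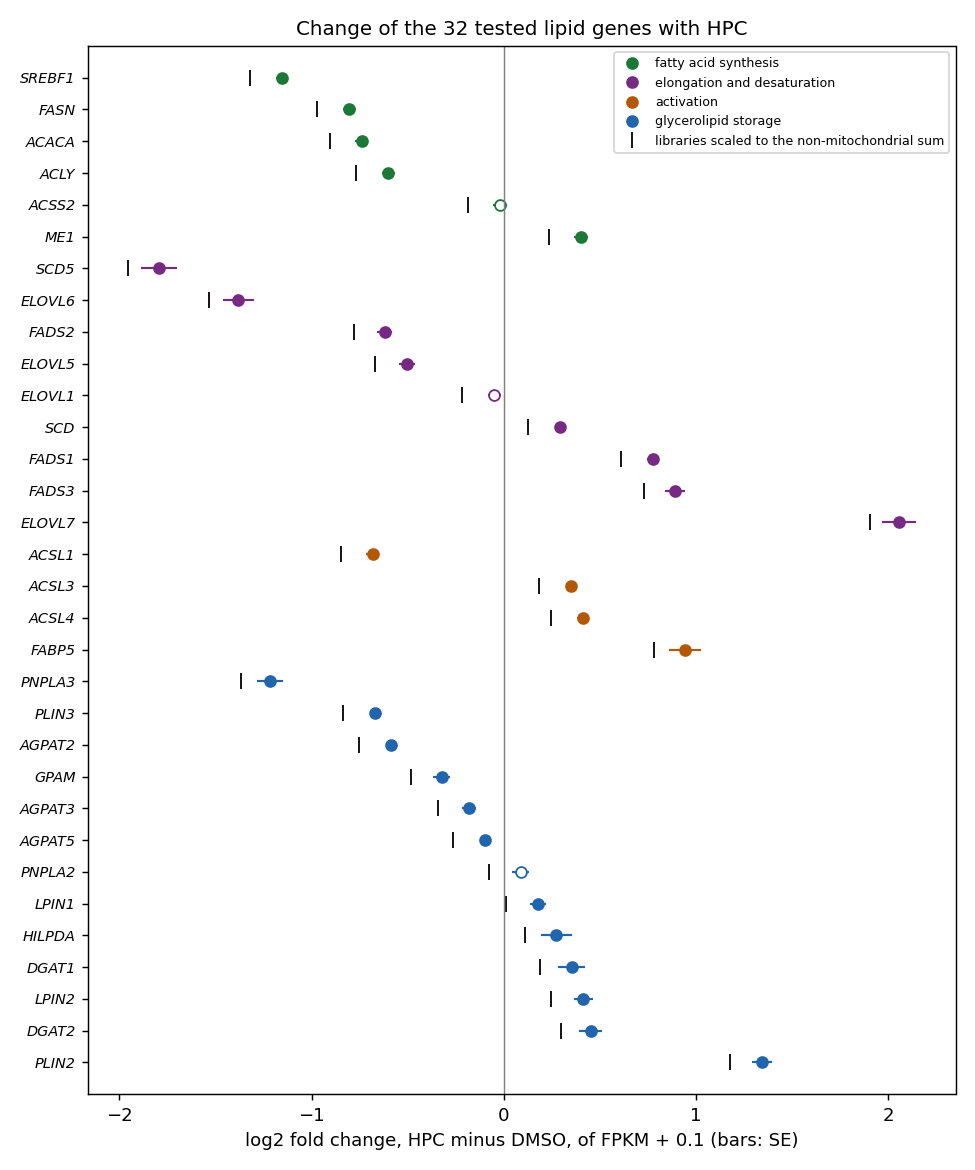
Log2 fold change of FPKM + 0.1, HPC minus DMSO, with its SE, for the 32 tested genes grouped and coloured by role. Filled circles passed the test, open circles (ACSS2, ELOVL1 and PNPLA2) did not, and the black ticks are the values after scaling to the non-mitochondrial sum. Every tick lies to the left of its circle, and only PNPLA2 crosses 0.

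Of the genes that activate or carry fatty acids, 3 of the 4 tested were higher and 1 lower, with 0.38 as the median log2 fold change. ACSL1, a long-chain acyl-CoA synthetase, fell from 3.32 ± 0.131 to 2.03 ± 0.0454 FPKM (limma log2 fold change -0.68 ± 0.035 SE, adjusted p = 5.25e-10). ACSL3, the synthetase found on lipid droplets, rose from 14.8 ± 0.265 to 18.8 ± 0.132 FPKM (limma log2 fold change 0.35 ± 0.021 SE). ACSL4, which prefers arachidonate and other polyunsaturated fatty acids, rose from 9.15 ± 0.353 to 12.2 ± 0.402 FPKM (limma log2 fold change 0.41 ± 0.033 SE). FABP5, a cytosolic fatty acid carrier, rose from 2.76 ± 0.390 to 5.37 ± 0.348 FPKM (limma log2 fold change 0.95 ± 0.084 SE, adjusted p = 2.49e-07). GENCODE 29 names 13 pseudogenes after FABP5, so its level is uncertain where reads match several copies. ACSL5 was not detected beyond 0.0148 FPKM in any library.

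In triglyceride synthesis and storage, 6 of the 13 tested genes rose, 6 fell and 1 did not pass the test (their median log2 fold change was 0.09), and with the non-mitochondrial sum 4 were higher, 6 lower and 3 did not pass. The acyltransferases of the first steps on the list fell. GPAM, the mitochondrial acyltransferase that begins glycerolipid synthesis, fell from 2.64 ± 0.135 to 2.09 ± 0.0922 FPKM (limma log2 fold change -0.32 ± 0.044 SE, adjusted p = 1.08e-05). Those of the next step were AGPAT2, which fell from 13.1 ± 0.326 to 8.70 ± 0.231 FPKM, AGPAT3, which fell from 3.30 ± 0.0837 to 2.90 ± 0.114 FPKM, and AGPAT5, which fell from 10.6 ± 0.103 to 9.87 ± 0.276 FPKM. Their log2 fold changes were -0.59, -0.18 and -0.10.

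The phosphatidate phosphatases LPIN1 and LPIN2 and the last acyltransferases, DGAT1 and DGAT2, rose. LPIN1 rose from 7.03 ± 0.183 to 7.97 ± 0.476 FPKM with overlapping groups (log2 fold change 0.18 ± 0.040 SE, limma, adjusted p = 0.000929), and did not pass with the non-mitochondrial sum (0.01, adjusted p = 0.779). LPIN2 rose from 7.70 ± 0.401 to 10.3 ± 0.735 FPKM (limma log2 fold change 0.41 ± 0.050 SE, adjusted p = 3.28e-06). DGAT1, which makes triglyceride from diacylglycerol, measured 2.56, 2.41, 2.80, 2.66 and 2.66 FPKM in DMSO and 3.55, 3.68, 3.66, 2.81 and 3.24 FPKM in HPC. HPC replicate 4 was the lowest HPC library for LPIN1, LPIN2 and DGAT1. DGAT1 rose by 0.35 on the log2 scale (SE 0.068, limma, adjusted p = 0.000292), and 10.7% of its exonic bases are shared with a second annotated gene on its strand. DGAT2, an unrelated enzyme of the same reaction (chromosome 11, 75759512 to 75801535), measured 1.08, 1.07, 1.03, 0.957 and 1.00 FPKM in DMSO and 1.33, 1.29, 1.54, 1.55 and 1.54 FPKM in HPC. It rose by 0.45 (SE 0.061, limma, adjusted p = 9.97e-06).

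The genes for 2 proteins of the droplet surface, PLIN2 and PLIN3, changed in opposite directions. PLIN2, a perilipin that is known to accumulate with droplets (chromosome 9, 19108375 to 19149290), measured 5.86, 5.59, 4.92, 4.92 and 4.81 FPKM in DMSO and 13.8, 13.04, 13.2, 13.4 and 13.4 FPKM in HPC. Every HPC value was more than 2 times the highest DMSO value, and the rise was 2.54-fold (log2 fold change 1.34 ± 0.051 SE, limma, adjusted p = 2.30e-11). PLIN3, a perilipin that moves between cytosol and droplets (chromosome 19, 4838341 to 4867768), fell from 19.99 ± 0.275 to 12.5 ± 0.464 FPKM (limma log2 fold change -0.67 ± 0.027 SE, adjusted p = 4.75e-11). An antisense gene overlaps 17.8% of the exonic bases of PLIN3. HILPDA, an inhibitor of the lipase ATGL, stood at 2.54 ± 0.292 FPKM in DMSO and at 3.08 ± 0.305 FPKM in HPC. It passed as higher with overlapping groups (log2 fold change 0.27 ± 0.080 SE, limma, adjusted p = 0.0063) and did not pass with the non-mitochondrial sum (0.11, adjusted p = 0.204).

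Of the lipases, PNPLA2, which encodes ATGL, stood at 5.94 ± 0.277 FPKM in DMSO and at 6.33 ± 0.381 FPKM in HPC and did not pass (log2 fold change 0.09 ± 0.044 SE, limma, adjusted p = 0.0769). Its value was -0.08 with the non-mitochondrial sum, and it passed as higher without DMSO replicate 1 (adjusted p = 0.0418) or without HPC replicate 4 (adjusted p = 0.0182). With a replicate block it also passed (limma, adjusted p = 0.0225), and 10.4% of its exonic bases are overlapped by an antisense gene. PNPLA3, a droplet protein and known SREBP1 target (chromosome 22, 43923739 to 43964488), measured 1.93, 1.75, 1.67, 1.79 and 1.65 FPKM in DMSO and 0.840, 0.638, 0.664, 0.681 and 0.692 FPKM in HPC. It fell 2.32-fold (log2 fold change -1.21 ± 0.067 SE, limma, adjusted p = 9.70e-10), with no overlap.

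MGLL and LIPE, the monoglyceride and hormone-sensitive lipases, were both under the filter. MGLL measured 0.0160, 0.0351, 0.0113, 0.0117 and 0.0301 FPKM in DMSO and 0.210, 0.239, 0.229, 0.227 and 0.223 FPKM in HPC. These values stand for 239 recovered reads in the 5 DMSO libraries and 2410 in the 5 HPC libraries. The groups did not overlap, and the mean was 10.8 times higher in HPC, at a level that stayed under 1 FPKM. With no filter the log2 fold change of MGLL was 1.43 (limma, adjusted p = 5.25e-09). That value is smaller than the ratio of means, because the 0.1 FPKM added before the log exceeds the DMSO mean of 0.0208 FPKM. LIPE had 33 and 86 recovered reads in the DMSO and HPC libraries and at most 0.0518 FPKM in any library.

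The FPKM ratio of related genes within a library does not depend on a scaling factor of that library. Of 8 pairs, 7 were tested with an exact two-sided permutation test, adjusted over the 7, and ACACA/ACACB was left as values because ACACB was under 1 FPKM. The SCD/SCD5 ratio was 110 ± 6.13 in DMSO and 490 ± 76.0 in HPC (SD, n = 5). On the log2 scale it rose by 2.09 (exact permutation p = 0.00794, adjusted p = 0.0139). The FADS1/FADS2 ratio was 3.22 ± 0.106 in DMSO and 8.77 ± 0.527 in HPC, a rise of 1.40 on the log2 scale with the same p-values. PLIN2 stood at 0.261 ± 0.0238 times PLIN3 in DMSO and at 1.07 ± 0.0227 times in HPC, a rise of 2.01 on the log2 scale. PLIN2 over PNPLA2 rose from 0.877 ± 0.0426 to 2.12 ± 0.124, or by 1.26 on the log2 scale. In these 4 pairs the 5 HPC ratios lay above the 5 DMSO ratios, and the p-values were the same for each. In SCD/SCD5, FADS1/FADS2 and PLIN2/PLIN3 both genes already separated the groups, in opposite directions. In PLIN2/PNPLA2, PLIN2 rose from at most 5.86 to at least 13.04 FPKM, while PNPLA2 stayed between 5.64 and 6.83 FPKM in every library. The ratios of these 4 pairs therefore had to separate the groups, and their p-values add nothing to the results of the single genes.

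**Figure D4:**
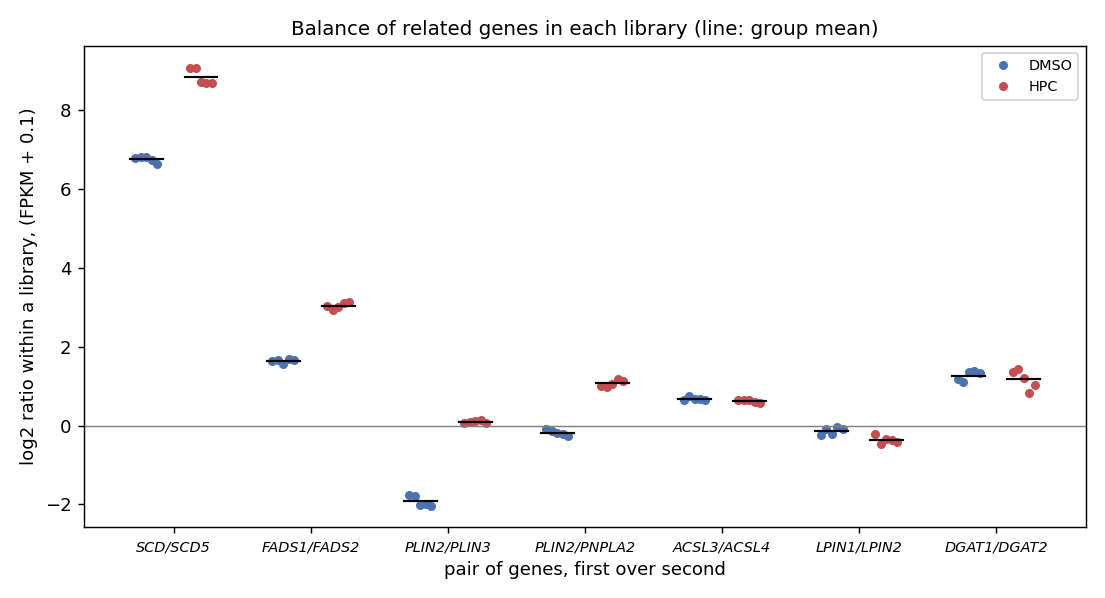
Log2 ratio of the first gene over the second, each as FPKM + 0.1, in every DMSO (blue) and HPC (red) library for the 7 tested pairs, with group means as lines. The groups are apart for SCD/SCD5, FADS1/FADS2, PLIN2/PLIN3 and PLIN2/PNPLA2 and overlap for ACSL3/ACSL4, LPIN1/LPIN2 and DGAT1/DGAT2.

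The other 3 tested pairs moved little. LPIN1 over LPIN2 fell from 0.915 ± 0.0564 to 0.775 ± 0.0521 (log2 difference -0.24, exact permutation p = 0.0159, adjusted p = 0.0222). ACSL3 over ACSL4 went from 1.61 ± 0.0493 to 1.54 ± 0.0422 (log2 difference -0.06, exact permutation p = 0.0238, adjusted p = 0.0278). This call was lost with a pseudocount of 1 (adjusted p = 0.0926) and without any of DMSO replicates 2, 3, 4 and 5 or HPC replicates 3, 4 and 5 (adjusted p = 0.0556 each). DGAT1 over DGAT2 measured 2.55 ± 0.231 in DMSO and 2.37 ± 0.423 in HPC and did not pass (log2 difference -0.10, exact permutation p = 0.468, adjusted p = 0.468). The ratio ACACA over ACACB was 8.0 ± 0.382 in DMSO and 14.0 ± 1.45 in HPC.

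Other genes of the pathway were read from 3 lists. Their counts stand against 42.9% higher and 44.8% lower of all tested genes, or 32.3% and 54.8% with the non-mitochondrial sum. Of 9 tested regulators of SREBP, ChREBP and LXR, 4 were higher, 3 lower and 2 did not pass the test (their median log2 fold change was 0.11), and with the non-mitochondrial sum 2 rose, 4 fell and 3 did not pass (median -0.05). SCAP, the escort of SREBP, fell from 2.20 ± 0.0907 to 1.73 ± 0.103 FPKM (limma log2 fold change -0.33 ± 0.046 SE, adjusted p = 1.31e-05). SREBF2, which encodes the sterol-gene SREBP, rose from 9.16 ± 0.134 to 10.1 ± 0.340 FPKM (limma log2 fold change 0.14 ± 0.028 SE, adjusted p = 0.000357), but its value was -0.03 with the non-mitochondrial sum. INSIG1 and INSIG2 did not pass, with log2 fold changes of 0.05 and 0.11 (limma, adjusted p = 0.205 and 0.0698). INSIG1 was called in both directions: it passed as lower with the non-mitochondrial sum (-0.12, limma, adjusted p = 0.00791) and with quantile normalization (-0.07, adjusted p = 0.0409), and as higher without HPC replicate 4 (adjusted p = 0.0177). INSIG2 was at -0.05 with the non-mitochondrial sum and did not pass (limma, adjusted p = 0.337). It passed as higher with quantile normalization (adjusted p = 0.00712), without HPC replicate 4 (adjusted p = 0.0279) and without DMSO replicate 3 (adjusted p = 0.0223). NR1H2, which encodes the oxysterol receptor LXR beta, rose from 1.50 ± 0.0525 to 3.76 ± 0.155 FPKM (limma log2 fold change 1.27 ± 0.039 SE, adjusted p = 2.62e-12). MID1IP1, an activator of acetyl-CoA carboxylase, rose from 0.472 ± 0.0243 to 1.14 ± 0.0452 FPKM and passed the filter through HPC only. MLX, the partner of ChREBP, fell by 0.41 on the log2 scale.

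Of 13 tested genes for other steps of fatty acid synthesis, elongation and uptake, 3 were higher, 9 lower and 1 did not pass the test (their median log2 fold change was -0.48). IDH1, a cytosolic source of NADPH as is ME1, rose from 18.4 ± 0.502 to 39.1 ± 1.15 FPKM (limma log2 fold change 1.08 ± 0.027 SE, adjusted p = 4.00e-13). SLC27A1, a fatty acid transport protein, fell from 1.94 ± 0.0754 to 0.680 ± 0.0700 FPKM. ACSS1, the mitochondrial acetyl-CoA synthetase, fell from 1.92 ± 0.0872 to 0.899 ± 0.0660 FPKM. Both passed the filter through DMSO only.

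Of 7 tested genes for other steps of glycerolipid and droplet metabolism, 2 were higher and 5 lower, with -0.20 as the median log2 fold change, and with the non-mitochondrial sum 1 was higher, 5 lower and 1 did not pass. LIPA, the lysosomal acid lipase that frees fatty acids and cholesterol from lipids taken up by the lysosome, fell from 103 ± 1.81 to 33.8 ± 1.94 FPKM (limma log2 fold change -1.61 ± 0.035 SE, adjusted p = 9.47e-14). GPAT3, an acyltransferase of the endoplasmic reticulum that catalyses the same step as GPAM, rose from 7.25 ± 0.719 to 13.7 ± 0.327 FPKM (limma log2 fold change 0.91 ± 0.055 SE, adjusted p = 3.07e-09). LPIN3, the remaining lipin, went the other way from LPIN1 and LPIN2 and fell from 2.06 ± 0.170 to 1.37 ± 0.146 FPKM (limma log2 fold change -0.56 ± 0.072 SE, adjusted p = 7.51e-06).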

How the data were processed

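Poly(A) RNA of 10 libraries was sequenced in paired-end mode on a NovaSeq instrument, per the labels' protocols. According to the submitters' processing notes, fastp 0.23.2, STAR 2.7.7a, edgeR and GRCh38.p13 were used, each without a stated role. The authors deposited 1 table of FPKM with 1 column per library. For the counter, annotation, strand setting and gene filter, the sources used here give nothing.

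Analyses used log2(FPKM + 0.1), which understates fold changes of low genes. The filter, at least 1 FPKM in 5 or more libraries, kept 9150 genes holding 98.9% of the FPKM. Their group difference was fitted with limma 3.58.1 (R 4.3.3), with a trended, robust empirical Bayes step, two-sided tests and Benjamini-Hochberg adjustment at 0.05 over all 9150 genes. No p-value was adjusted over the lipid genes alone and no set test was run. Ratios and the mitochondrial share were compared with exact permutation tests over the 252 assignments of 10 libraries. The lipid genes and the lists were chosen with earlier results of these data known. All 36 genes are named, and the other lists are shown by 4 fixed regulators and the 3 largest called changes of each list. Values in every library are given for fixed genes and, of the 36 genes, for called ones with an absolute log2 fold change of at least 1. Annotation is from GENCODE 29.

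A simulation of HPC against DMSO drew 9149 genes around their DMSO means, with a coefficient of variation of 4.09%. It held 4 sets of 50 changed genes (1.25, 1.5, 2 and 4-fold), each of which was called in full (100%), and 11 of its 211 calls were false. All its genes had the same coefficient of variation, and it held no shift of the mitochondrial share. In the data 87.7% of the tested genes were called, so the rates of the simulation do not carry over to them. Python 3.11.15 was used with SciPy 1.17.1, NumPy 2.4.6, matplotlib 3.10.9 and pandas 2.3.3. Alternatives changed the pseudocount, filter, scaling, variance model, threshold, block and libraries, and limma's voom was run on the recovered reads.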

Additional observations from a re-analysis of the deposited data

Results flagged for a closer look

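In 3 of 64 groups of 5 values (4.69%), for the 32 tested genes in each treatment, 1 library stood apart from the other 4 by Dixon's test at its 95% critical value of 0.71. Chance flags about 1 in 20 such groups. FABP5 measured 4.76 FPKM in HPC replicate 2, under the 5.40 to 5.60 FPKM of the other HPC libraries. AGPAT5 measured 9.39 FPKM in HPC replicate 1, under 9.90 to 10.1 FPKM in the others. PNPLA3 measured 0.840 FPKM in HPC replicate 1, above 0.638 to 0.692 FPKM in the others. The calls of all 3 genes were kept in each fit that left out 1 library.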

How the results depend on the processing

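Over 21 alternatives, 27 of the 32 tested lipid genes kept their direction and their side of the threshold wherever they were tested, and the exceptions were ACSS2, ELOVL1, LPIN1, HILPDA and PNPLA2. ACSS2 lay between -0.037 and 0.0057 when 1 library was left out, turning to 0.0057 without DMSO replicate 1, and PNPLA2 turned to -0.077 with the non-mitochondrial sum. That scaling also turned SREBF2 to -0.028, INSIG1 to -0.12, INSIG2 to -0.054, MBTPS2 to -0.031 and FITM2 to -0.027, and quantile normalization turned INSIG1 to -0.072. The DGAT1/DGAT2 difference turned to 0.0046 with a pseudocount of 1, which moved ACSL3/ACSL4 to -0.048. Leaving out 1 library gave -0.071 to -0.044 for ACSL3/ACSL4. The cause was not tested.

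With a filter of at least 5 FPKM fewer genes were tested: 1969 were higher and 1836 lower, among the lipid genes 8 and 8, in elongation and desaturation 2 and 2, in storage 3 and 3, with 0 lower in activation. The regulators then gave 2 higher and 1 lower, the other synthesis and uptake genes 4 lower and the other droplet genes 2 lower. With no filter the regulators gave 5 lower and the other droplet genes 6 higher. The non-mitochondrial sum gave 2 higher regulators. The other droplet genes gave 1 higher with TPM rescaling (also with a replicate block), the non-mitochondrial sum or an adjusted p under 0.01, and 3 lower with quantile normalization or an adjusted p under 0.01.

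With a replicate block 3892 genes were higher and 4077 lower, and of the lipid genes it changed the call of PNPLA2. With TPM rescaling added to the block, ELOVL1 passed as lower. Over the tested genes, the deviations of same-numbered libraries from their group means correlated at -0.06 to 0.20, over 0.1 in 2 of 5 pairs. By these deviations 4 of 10 libraries matched their own number best, so the numbers were not taken as pairing. Ratios were not blocked. The edgeR test on recovered reads was not run, since the files hold FPKM; voom on those reads called 3926 genes higher and 4101 lower. Depth limits ACSL5 and LIPE, which had at most 35 reads in a library.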
